A study of Mus musculus with 16 samples.

Results

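Levels of 10 immediate early and MAP kinase feedback genes (Fos, Jun, Junb, Egr1, Egr2, Dusp1, Dusp2, Dusp4, Dusp6 and Rgs1) were followed in mouse bone marrow derived macrophages on 16 single-colour Illumina expression arrays. The genes were taken by symbol, as all 17 probes of the 10 genes among the 25697 probes and 16593 named genes of the deposited table. Of these 17 probes, 15 were detected on at least 4 arrays and were tested, and each gene kept at least 1 probe. Probe ILMN_1242406 of Dusp2 and probe ILMN_2608995 of Dusp4 did not reach that number. For Jun, Junb, Egr2, Dusp1, Dusp6 and Rgs1 the arrays of the 2 duplicate numbers in the labels did not overlap. This holds for the probe that stands for each gene, and the dim Dusp6 probe ILMN_1248537 overlapped. Of the 8531 probes detected on all 16 arrays, 5.87% lay wholly higher and 4.29% wholly lower on duplicate 2 arrays. Dusp4 was below detection on all duplicate 1 arrays, so the detection filter fixed its direction. No labelled comparison of genotype or of aggregated LDL called any of the 10 genes. With the arrays of a mouse and treatment averaged, 0% of all 10224 tested probes were called there.

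Immediate early genes are transcribed within minutes of a growth factor, adhesion or stress signal, before new protein is made, and their mRNAs are as a rule short-lived. The signal travels through the MAP kinases ERK, JNK and p38, which act on serum response factor and its ETS partners, on CREB and on AP-1. Fos, Jun and Junb are subunits of AP-1, and Egr1 and Egr2 are zinc finger transcription factors of the same early wave. The dual-specificity phosphatases of the Dusp family are induced by the cascade and take phosphate off MAP kinases, which closes a feedback loop. Rgs1 speeds the shut-off of heterotrimeric G proteins and so dampens signals from chemokine receptors. In macrophages the growth factor M-CSF is a standing input to the ERK branch.

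The macrophages came from 12 week old C57BL6 mice carrying floxed Ndst1, the gene of an enzyme that sulfates heparan sulfate. Ndst1-deficient mice (Ndst1f/f LysMCre+) also carried Cre driven from the lysozyme M locus, which is active in myeloid cells, and mice labelled wild-type (Ndst1f/f LysMCre-) did not. The 4 groups of 4 arrays were Ndst1-deficient with 50 µg/ml aggregated LDL (agLDL) for 24 hours, Ndst1-deficient untreated, wild-type with agLDL, and wild-type untreated. M-CSF and lipoprotein-deficient serum were in the medium of every group during those 24 hours. Each group held 2 mice, whose macrophages were split between the treatments, and every such culture condition was measured on 2 arrays, so 4 mice stood behind the 16 arrays. The labels number the mouse and then the duplicate, and an array is named here by both, as 1.1, 1.2, 2.1 or 2.2. A mouse number used under both genotype labels stands for different animals, and the labels do not say whether duplicates were separate cultures. P-values over the 16 arrays therefore measure a spread that is partly technical.

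The arrays detected between 9241 and 10115 probes, with 9563 to 10115 on arrays of duplicate number 2 and 9241 to 9951 on arrays of duplicate number 1. The raw 75th percentile signal was 340 to 386 on duplicate 2 arrays and 312 to 375 on duplicate 1 arrays. All 6 macrophage markers with a probe were measured, while none of the 5 dendritic, 5 T and NK, 3 mast or 3 erythroid markers with a probe was detected on any array. Each genotype label lay on a slide of its own, and the 2 cannot be told apart. Duplicate 1 arrays took positions A, C, E and G of a slide and duplicate 2 arrays B, D, F and H, so duplicate number and position cannot be told apart either. Treatment went with position as well: on each slide E, F, G and H held the agLDL samples, and A, B, C and D the untreated ones. A difference between treatments can therefore not be told apart from one between these positions.

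Promoter windows are shown for Egr2 and Dusp1, which were higher on duplicate 2 arrays, for Junb, which was lower, and for Dusp2, which was not called. They run from 250 bases before to 50 bases after a transcription start in RefSeq (GRCm38.p6). Windows of 7 of the 10 genes were used, and Dusp4, Egr1 and Rgs1 are named only. Both strands were searched for the CArG box bound by serum response factor, the cyclic AMP response element TGACGTCA, the AP-1 element TGANTCA, the Egr element GCGNGGGCG and the ETS core CCGGAA, and capitals mark the matches. Over all 32851 mouse windows of that length, 1.629% held a CArG box, 1.79% the cyclic AMP response element, 7.808% the AP-1 element, 5.552% the Egr element and 14.898% the ETS core. The Egr2 window at chr10:67537619-67537918 (+ strand) held a CArG box starting 72 bases upstream of the start, and Egr2 has other annotated starts nearby. The windows of the starts at 67537870 and 67537930 held the same CArG box. That of the start at 67537566 held another CArG box and ETS cores, and that of the start at 67535499 held no match. The shares above are per window, and Egr2 had several windows. The Dusp1 window at chr17:26508423-26508722 (- strand) held the cyclic AMP response element 143 bases upstream, and the Dusp2 window at chr2:127335909-127336208 (+ strand) held the Egr element 98 bases upstream. The Junb window at chr8:84978699-84978998 (- strand) held none of the searched letters, and neither did the windows of Fos, Jun and Dusp6. A match is a description of the letters and not a site shown to be bound.
Egr2: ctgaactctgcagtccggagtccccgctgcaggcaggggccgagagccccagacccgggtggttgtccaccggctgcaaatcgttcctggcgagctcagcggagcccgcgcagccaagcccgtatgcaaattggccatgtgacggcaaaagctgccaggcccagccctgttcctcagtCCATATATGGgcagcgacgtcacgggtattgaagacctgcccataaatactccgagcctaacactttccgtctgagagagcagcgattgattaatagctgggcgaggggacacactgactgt
Dusp1: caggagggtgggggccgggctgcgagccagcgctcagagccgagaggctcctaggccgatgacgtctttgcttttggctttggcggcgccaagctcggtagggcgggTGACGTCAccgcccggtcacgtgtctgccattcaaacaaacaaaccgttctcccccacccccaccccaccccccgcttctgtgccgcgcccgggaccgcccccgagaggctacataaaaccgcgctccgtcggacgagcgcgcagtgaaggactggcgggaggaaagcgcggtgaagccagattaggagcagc
Dusp2: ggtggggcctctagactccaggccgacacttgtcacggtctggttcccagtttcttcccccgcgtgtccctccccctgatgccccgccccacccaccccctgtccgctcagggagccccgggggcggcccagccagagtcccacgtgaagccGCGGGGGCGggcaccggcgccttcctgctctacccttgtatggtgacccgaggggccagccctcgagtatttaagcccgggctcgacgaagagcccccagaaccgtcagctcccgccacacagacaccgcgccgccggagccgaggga
Junb: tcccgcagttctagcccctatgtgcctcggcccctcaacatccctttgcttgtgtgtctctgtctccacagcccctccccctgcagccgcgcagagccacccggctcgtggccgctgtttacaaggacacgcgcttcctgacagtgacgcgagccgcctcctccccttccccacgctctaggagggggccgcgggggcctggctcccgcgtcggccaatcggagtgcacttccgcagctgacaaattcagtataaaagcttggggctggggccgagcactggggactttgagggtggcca

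Values below are log2 intensities after background correction and quantile normalization between arrays. For each set they are listed in the order Ndst1-deficient with agLDL, Ndst1-deficient untreated, wild-type with agLDL and wild-type untreated. A probe was called at an adjusted p under 0.05, with the Benjamini-Hochberg adjustment over all 10224 probes that passed the filter. The comparison of duplicate numbers asks whether the repeat measurements of the same mouse and treatment carried the same levels of these genes.

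Among the AP-1 genes, Jun and Fos were higher and Junb was lower on duplicate 2 arrays. Jun read 9.91, 9.84, 9.97 and 9.81 on arrays 2.2, against 8.68, 8.63, 8.74 and 8.38 on arrays 2.1. In mouse number 1 it read 10.12, 10.34, 10.13 and 10.07 on arrays 1.2, against 9.46, 9.49, 9.37 and 9.37 on arrays 1.1. Every duplicate 2 array lay above every duplicate 1 array, and the log2 difference was 1.01 ± 0.06 (SE), or 2.01-fold (limma adjusted p = 5.10e-08). Fos read 11.15, 11.22, 11.01 and 10.74 on arrays 2.2, against 10.18, 10.22, 10.32 and 10.29 on arrays 2.1. On arrays 1.2 it read 11.35, 10.81, 11.31 and 11.01, against 10.45, 10.28, 10.78 and 10.06 on arrays 1.1. The highest duplicate 1 array, wild-type with agLDL, reached just above the lowest duplicate 2 array, but within each mouse and treatment Fos was higher on duplicate 2 in 8 of 8 pairs. Its log2 difference was 0.75 ± 0.09 (limma adjusted p = 2.47e-05).

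Junb ran the other way. It read 10.84, 10.92, 10.64 and 10.98 on arrays 2.2, against 11.18, 11.09, 11.10 and 11.10 on arrays 2.1. The values were 10.51, 10.93, 10.57 and 10.84 on arrays 1.2, against 11.33, 11.26, 11.22 and 11.26 on arrays 1.1. All duplicate 2 arrays lay below all duplicate 1 arrays, with a log2 difference of -0.41 ± 0.07 (limma adjusted p = 2.11e-04). This opposite movement put 2 subunits of the same dimeric factor, Jun and Junb, on opposite sides of the duplicate number in 8 of 8 pairs each.

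The paired zinc finger genes also parted. Egr2, which takes part in macrophage differentiation, read 9.40, 9.46, 9.25 and 9.17 on arrays 2.2, against 7.60, 7.92, 7.31 and 7.31 on arrays 2.1. For mouse number 1 the values were 9.20, 8.51, 8.85 and 8.46 on arrays 1.2, against 6.89, 6.30, 7.05 and 6.51 on arrays 1.1. The sets did not overlap, and Egr2 was 3.80-fold higher on duplicate 2 arrays (log2 difference 1.93 ± 0.12, limma adjusted p = 8.55e-08). Egr1 read 6.68, 6.86, 6.82 and 6.95 on arrays 2.2, against 7.18, 6.99, 6.92 and 7.22 on arrays 2.1. Its values were 6.64, 6.75, 7.27 and 7.29 on arrays 1.2, against 7.02, 6.80, 7.91 and 7.10 on arrays 1.1. The sets overlapped, and Egr1 was lower on duplicate 2 in 7 of 8 pairs with a log2 difference of -0.23 ± 0.12 (95% interval -0.50 to 0.04, limma adjusted p = 0.145), which is not a call.

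**Figure D1:**
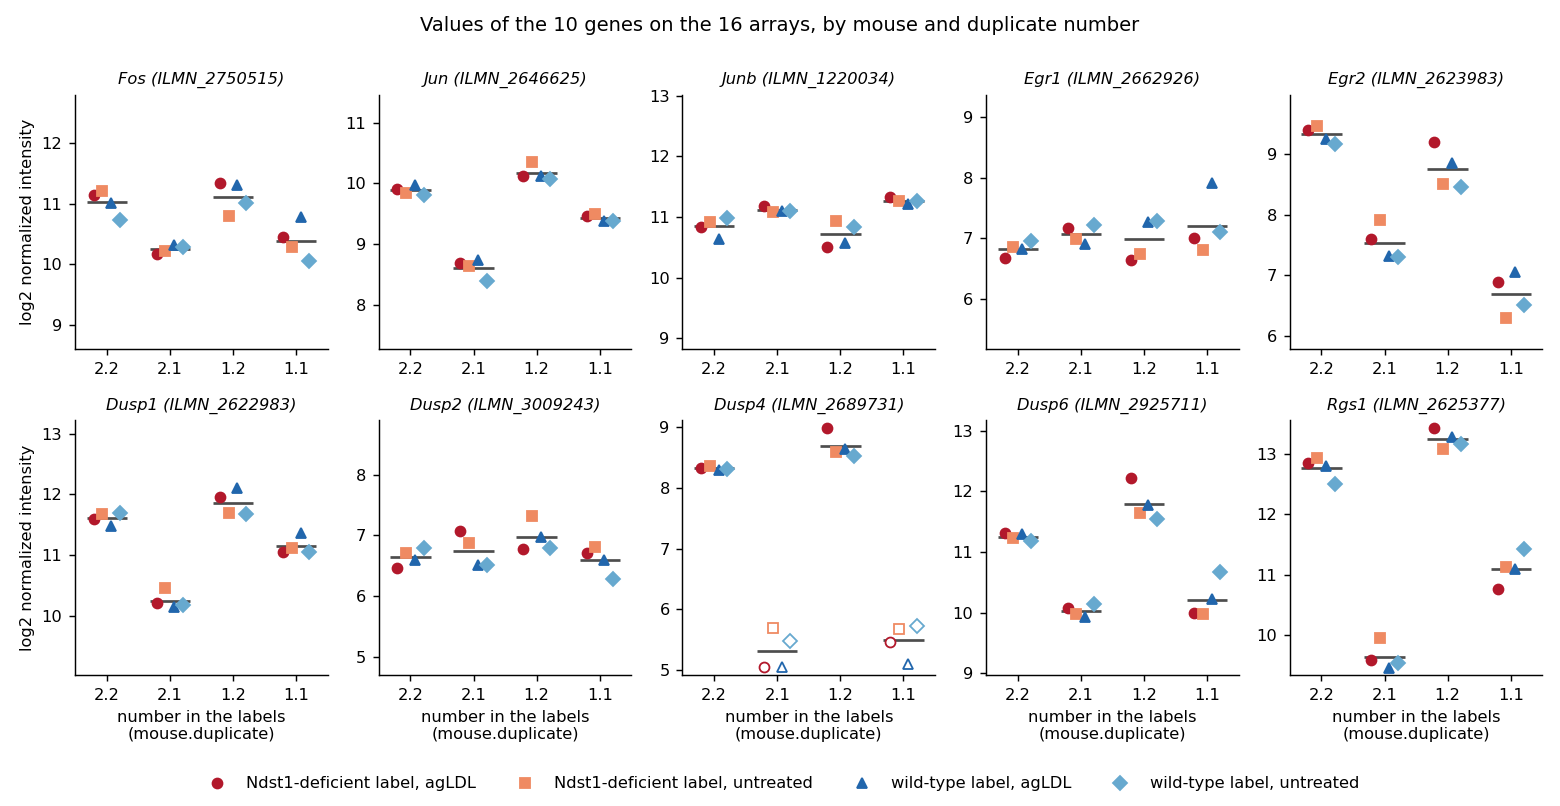
Log2 normalized intensity (y axis, the same span of units in each panel) of 1 probe per gene on the 16 arrays, by mouse and duplicate number (x axis); symbols give genotype label and treatment, bars the mean of 4 arrays, and open symbols arrays on which the probe was not detected. Arrays 2.2 and 1.2 sit above arrays 2.1 and 1.1 for Jun, Egr2, Dusp1, Dusp4, Dusp6 and Rgs1, and below them for Junb.

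Of the 4 phosphatase genes, Dusp1 and Dusp6 were called higher on duplicate 2 arrays, where 22.4% of all probes were. Dusp2 was not called, and the detection filter fixed the direction of Dusp4. Dusp1, a nuclear phosphatase that acts mostly on p38 and JNK, read 11.59, 11.67, 11.48 and 11.69 on arrays 2.2, against 10.20, 10.46, 10.14 and 10.17 on arrays 2.1. It read 11.95, 11.70, 12.10 and 11.67 on arrays 1.2, against 11.05, 11.11, 11.36 and 11.06 on arrays 1.1. No duplicate 1 array reached the lowest duplicate 2 array, and the log2 difference was 1.04 ± 0.08, or 2.05-fold (limma adjusted p = 5.90e-07). Dusp6, the cytoplasmic phosphatase specific for ERK, read 11.31, 11.23, 11.29 and 11.17 on arrays 2.2, against 10.07, 9.98, 9.92 and 10.14 on arrays 2.1 (probe ILMN_2925711). On arrays 1.2 Dusp6 read 12.22, 11.64, 11.78 and 11.54, against 10.00, 9.98, 10.22 and 10.66 on arrays 1.1. The sets did not overlap, and the log2 difference was 1.40 ± 0.11 (limma adjusted p = 4.96e-07). The dimmer Dusp6 probes ILMN_2701321 and ILMN_1248537 were detected on all 8 duplicate 2 arrays but on 4 and 3 duplicate 1 arrays, and were higher by 1.92 ± 0.18 and 1.31 ± 0.17 on the log2 scale. The duplicate sets of ILMN_1248537 overlapped: the Ndst1-deficient untreated array 2.2 read 5.92 and the wild-type agLDL array 1.1 read 6.04.

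Dusp4, a nuclear phosphatase induced by ERK, was detected on 8 of 8 duplicate 2 arrays and on 0 of 8 duplicate 1 arrays by both kept probes. Probe ILMN_2689731 read 8.33, 8.37, 8.29 and 8.31 on arrays 2.2, against 5.04, 5.70, 5.05 and 5.48 on arrays 2.1. It read 8.99, 8.59, 8.65 and 8.52 on arrays 1.2, against 5.47, 5.68, 5.10 and 5.72 on arrays 1.1. The means were 8.51 ± 0.24 on duplicate 2 and 5.40 ± 0.30 on duplicate 1 arrays (SD, 8 arrays each), where the probe was not well above background. Against the lowest detected signal of each duplicate 1 array, Dusp4 was at least 6.17-fold higher on duplicate 2 arrays. The other probe, ILMN_2870965, averaged 6.59 ± 0.36 on duplicate 2 and 5.23 ± 0.29 on duplicate 1 arrays, at least 1.63-fold higher. Because Dusp4 passed the filter only through duplicate 2 arrays, the filter fixed its direction here, and no p-value is given for this difference.

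Dusp2, a nuclear phosphatase of activated leukocytes, was the phosphatase gene that was not called. It read 6.47, 6.72, 6.59 and 6.79 on arrays 2.2, against 7.08, 6.87, 6.51 and 6.51 on arrays 2.1. Values of 6.77, 7.32, 6.98 and 6.80 on arrays 1.2 were set against 6.72, 6.81, 6.60 and 6.28 on arrays 1.1. The sets overlapped, and the log2 difference was 0.13 ± 0.10 (95% interval -0.08 to 0.34, limma adjusted p = 0.29).

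Rgs1 had the widest span of the genes detected on every array. Probe ILMN_2625377 read 12.84, 12.93, 12.80 and 12.50 on arrays 2.2, against 9.60, 9.96, 9.47 and 9.54 on arrays 2.1. It read 13.43, 13.08, 13.27 and 13.16 on arrays 1.2, against 10.76, 11.12, 11.10 and 11.43 on arrays 1.1. No array of any number overlapped with an array of another number, and Rgs1 was 6.18-fold higher on duplicate 2 arrays (log2 difference 2.63 ± 0.11, limma adjusted p = 1.81e-09). Probes ILMN_2596596 and ILMN_2897891 gave log2 differences of 2.90 ± 0.09 and 3.04 ± 0.10 with the same separation.

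Counts were taken over the 8531 probes detected on all 16 arrays, which could not pass the filter through 1 duplicate number alone. The 11 such probes of these genes, from 9 genes, were called higher 8 times and lower 1 time on duplicate 2 arrays, where 47.4% of the 8531 were called, 22.8% higher and 24.6% lower. By gene this was 6 higher (Fos, Jun, Egr2, Dusp1, Dusp6 and Rgs1), 1 lower (Junb) and 2 not called (Egr1 and Dusp2). The median log2 difference of the 11 probes was 1.04, against -0.01 over all 8531. The duplicate sets did not overlap for 7 of the 11 probes in the higher direction and 1 in the lower, against 5.87% and 4.29% of the 8531. Both Dusp4 probes and the dimmer Dusp6 probes ILMN_2701321 and ILMN_1248537 are outside these counts, because they could pass the filter through duplicate 2 arrays. With them, 12 of the 15 probes were called higher and 1 lower, where 46.0% of all 10224 probes were called, 22.4% higher and 23.7% lower, and nothing is read from that count. In these bulk samples, fewer cells of a type and less RNA per cell cannot be told apart.

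The same split was present within each mouse number, as the plot of within-mouse differences shows. In mouse number 2, 8 of the 11 probes detected on every array were called higher on arrays 2.2 than on 2.1 and 1 was lower, where 34.9% of the 8531 were called, 17.5% in either direction. In mouse number 1 the counts for arrays 1.2 against 1.1 were again 8 and 1, where 26.9% were called, 12.6% higher and 14.4% lower. Junb differed by -0.27 ± 0.09 in mouse number 2 (limma adjusted p = 0.0379) and by -0.55 ± 0.09 in mouse number 1 (adjusted p = 8.33e-04). The mouse number 2 call of Junb was lost without normalization between arrays (limma adjusted p = 0.0993), without the filter on dim probes (adjusted p = 0.0634) and on leaving out any of 5 arrays, with adjusted p up to 0.130. These were the Ndst1-deficient agLDL arrays 2.2 and 2.1, the wild-type agLDL arrays 2.2 and 2.1 and the Ndst1-deficient untreated array 2.2. Dusp2 differed by -0.10 ± 0.14 in mouse number 2 and by 0.37 ± 0.14 in mouse number 1 (limma adjusted p = 0.605 and 0.066).

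**Figure D2:**
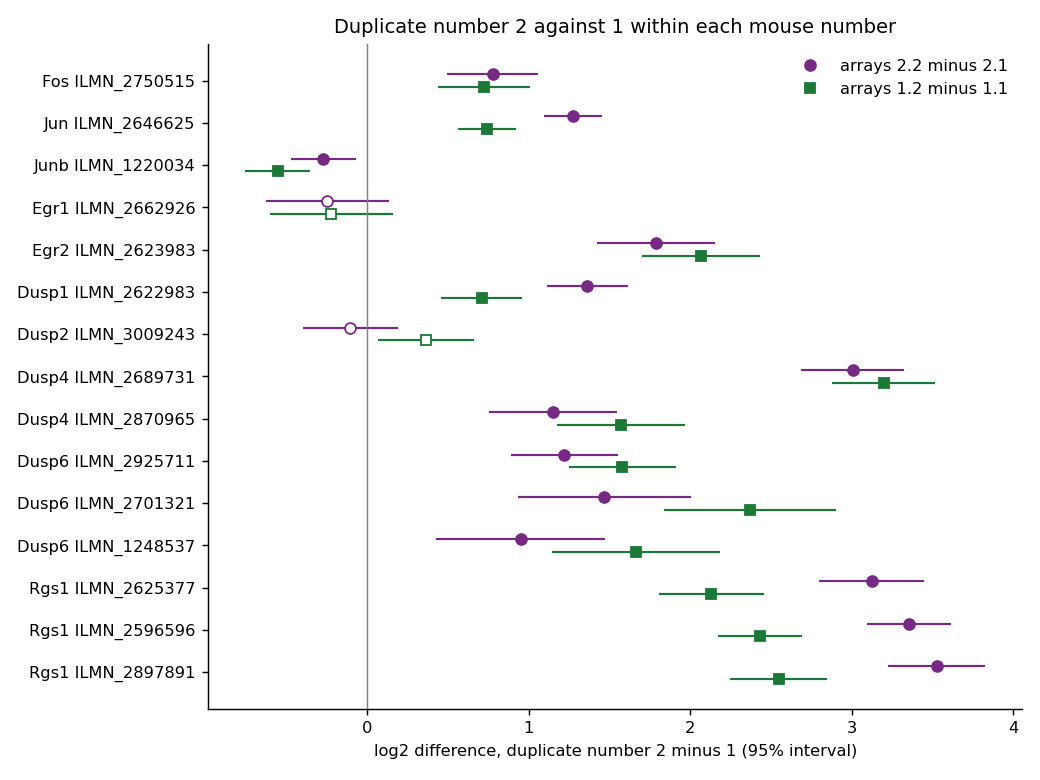
Log2 difference of duplicate number 2 minus 1 with its 95% interval (x axis) for the 15 tested probes (rows), within mouse number 2 (circles) and mouse number 1 (squares); filled symbols passed the adjusted p of 0.05. Rgs1, Jun and Dusp1 lie further right in mouse number 2, Junb lies left of 0 in both, and the Dusp4 values rest on duplicate 1 arrays below detection.

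The change of the duplicate difference between mouse numbers had both signs, with 5 of the 10 genes positive and 5 negative, and no gene passed its test. This count includes Dusp4, whose duplicate 1 values were below detection, so its sign is not read. The log2 difference of Rgs1 was 3.12 ± 0.15 between arrays 2.2 and 2.1 and 2.13 ± 0.15 between arrays 1.2 and 1.1. For Jun these differences were 1.27 ± 0.08 and 0.74 ± 0.08, and for Dusp1 1.36 ± 0.12 and 0.71 ± 0.12. The test of the change in difference called none of the 15 probes, and it called 0.0782% of all probes (0.00978% higher and 0.0685% lower). In the other direction, Egr2 differed by 1.79 ± 0.17 in mouse number 2 and 2.07 ± 0.17 in mouse number 1, and Dusp6 by 1.22 ± 0.15 and 1.58 ± 0.15 in the same order. The test's values were 0.99 ± 0.21 for Rgs1 (limma adjusted p = 0.127), 0.53 ± 0.12 for Jun (adjusted p = 0.137) and 0.65 ± 0.16 for Dusp1 (adjusted p = 0.22). The other Rgs1 probes gave adjusted p values of 0.071 and 0.0932. The change was -0.28 ± 0.24 for Egr2 (adjusted p = 0.853), -0.36 ± 0.22 for Dusp6 (adjusted p = 0.748) and -0.90 ± 0.35 for its dimmer probe ILMN_2701321 (adjusted p = 0.548). By unadjusted p under 0.05, 7 of the 15 probes passed, where 7.97% of all probes did. They were 5 higher (3 of Rgs1, Jun and Dusp1), where 4.14% of all probes were, and 2 lower (Dusp2 and Dusp6 probe ILMN_2701321), where 3.83% were.

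Ordered by their means, Jun and Rgs1 ran from arrays 1.2 through 2.2 and 1.1 down to 2.1, and all 3 neighbouring sets in that order were apart. Dusp1 and Dusp6 had the same order of means, but arrays 1.2 and 2.2 overlapped for Dusp1, and arrays 1.1 and 2.1 for Dusp6. Dusp4 had higher values on arrays 1.2 than on 2.2 without overlap, and its values on arrays 1.1 and 2.1, below detection, have no order. Egr2 ran from arrays 2.2 (9.32 ± 0.13, SD of 4 arrays) through 1.2 (8.75 ± 0.34) and 2.1 (7.53 ± 0.29) to 1.1 (6.69 ± 0.34), with only the first neighbours overlapping. Junb ran from arrays 1.1 (11.26 ± 0.05) through 2.1 (11.12 ± 0.04) and 2.2 (10.84 ± 0.15) to 1.2 (10.71 ± 0.20), with the last neighbours overlapping. For Fos, Egr1 and Dusp2 every pair of neighbouring sets overlapped, so their order does not exceed the spread.

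Mouse number 2 against 1 sets 2 animals against 2 others, and their arrays also differ in position, which cannot be told apart. By gene, 1 of the 10 was called higher on mouse number 2 (Egr2) and 4 lower (Rgs1, Jun, Dusp1 and Dusp6), where 30.9% of all probes were called, 16.3% higher and 14.6% lower. Egr2 averaged 8.43 ± 0.98 on mouse number 2 and 7.72 ± 1.15 on mouse number 1 arrays (SD, 8 arrays each). Its log2 difference was 0.71 ± 0.12, higher in 8 of 8 pairs (limma adjusted p = 6.41e-04). Rgs1 averaged 11.20 ± 1.68 on mouse number 2 and 12.17 ± 1.16 on mouse number 1 arrays, a log2 difference of -0.96 ± 0.11, lower in 8 of 8 pairs (limma adjusted p = 1.88e-05). Jun differed by -0.55 ± 0.06 and was lower in 8 of 8 pairs, and Dusp1 differed by -0.57 ± 0.08 and was lower in 7 of 8 (limma adjusted p = 1.43e-05 and 1.64e-04). Dusp6 differed by -0.36 ± 0.11 (limma adjusted p = 0.0222), a call lost without the wild-type untreated array 2.2 (adjusted p = 0.0526), and its probe ILMN_2701321 was not called (adjusted p = 0.113). Dusp4 differed by -0.27 ± 0.10 and was detected on 4 of 8 arrays of either mouse number (limma adjusted p = 0.0689). The arrays of both mouse numbers overlapped for all 15 probes, and over all probes 1.33% and 2.50% were apart in the higher and lower directions. Cell type markers also moved with the mouse number, where 31.8% of all genes were called, and their part in these results was not tested. Of 7 stromal markers, Col1a1, Sparc and Acta2 were measured and lower on mouse number 2, where no array detected Col1a1 or Sparc, while Col1a2, Col3a1, Dcn and Pdgfrb were not detected on any array. Col1a1 and Sparc passed the detection filter only through mouse number 1 arrays, so the filter fixed their direction. The summed linear level of the 3, which includes them, was 603 to 930 on mouse number 2 and 2062 to 2943 on mouse number 1 arrays. Of 6 macrophage markers, Cd14 (0.42 ± 0.07), Mertk (0.28 ± 0.10) and Adgre1 (0.22 ± 0.06) were higher and Fcgr1 (-0.68 ± 0.07) lower, with sums of 59903 to 71830 on mouse number 2 and 58292 to 69222 on mouse number 1 arrays. Of 7 neutrophil markers, Ltf (0.33 ± 0.07) and S100a8 (0.29 ± 0.09) were higher and none lower, with sums of 17358 to 23849 on mouse number 2 and 13227 to 18433 on mouse number 1 arrays.

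The labelled comparisons ask whether agLDL loading or loss of Ndst1 changed these genes. Their main fit has no term for the mouse, so the pairing of treated and untreated macrophages of the same mouse was not used. Its intervals for agLDL therefore include the spread between mice. In all 5 of them (agLDL under each genotype label, genotype without and with agLDL, and the interaction) 0 of the 15 probes were called, and 0% of all 10224 probes were, with limma adjusted p of 0.9998 or more for the 15. At an unadjusted p under 0.05 none of the 15 passed in any of the 5. Of all probes, 3.07% and 0.763% did so for agLDL under the Ndst1-deficient and wild-type labels, 2.66% and 5.01% for genotype with agLDL and untreated, and 1.12% for the interaction. The arrays of both groups overlapped for all 15 probes in the 4 comparisons of 2 groups.

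With agLDL, Fos on Ndst1-deficient arrays read 11.15, 10.18, 11.35 and 10.45 on numbers 2.2, 2.1, 1.2 and 1.1, against 11.22, 10.22, 10.81 and 10.28 untreated. On wild-type arrays Fos read 11.01, 10.32, 11.31 and 10.78 with agLDL, against 10.74, 10.29, 11.01 and 10.06 untreated. The treated and untreated arrays overlapped under both labels. The log2 difference of Fos was 0.15 ± 0.16 under the Ndst1-deficient label (95% interval -0.24 to 0.54) and 0.33 ± 0.16 under the wild-type label (-0.06 to 0.72), over 2 mice per group. Because arrays of the same number deviated together, the fit was repeated on the 16 arrays with the number as a block. In that blocked fit Fos under the wild-type label differed by 0.33 ± 0.13 (95% interval 0.05 to 0.62, limma adjusted p = 0.999). It was higher with agLDL in all 4 numbers under that label, where treatment and slide position cannot be told apart. The interaction of genotype label and agLDL for Fos was -0.18 ± 0.23.

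Among the 10 representative probes, the genotype difference was furthest from 0 for Dusp2 and then Egr1 untreated, and for Egr1 and then Dusp4 with agLDL. Egr1 averaged 6.88 ± 0.07 in Ndst1-deficient and 7.23 ± 0.51 in wild-type macrophages with agLDL (SD over 2 mice). Untreated, it averaged 6.85 ± 0.10 in Ndst1-deficient and 7.14 ± 0.08 in wild-type macrophages. The log2 differences were -0.35 ± 0.23 with agLDL (95% interval -0.89 to 0.18) and -0.29 ± 0.23 untreated (-0.82 to 0.25), and in the blocked fit the limma adjusted p was 0.663 and 0.49. Dusp2 averaged 6.93 ± 0.19 in untreated Ndst1-deficient and 6.59 ± 0.08 in untreated wild-type macrophages, a log2 difference of 0.34 ± 0.14. With agLDL the difference was 0.09 ± 0.14 for Dusp2 and 0.19 ± 0.20 for Dusp4, which 2 of 4 arrays of either label detected. With the number as a block, the interval of untreated Dusp2 was 0.04 to 0.63 and the limma adjusted p 0.284. Probe ILMN_2897891 of Rgs1 differed by -0.38 ± 0.14 between untreated Ndst1-deficient and wild-type macrophages in the blocked fit (limma adjusted p = 0.233). The other Rgs1 probes, ILMN_2625377 and ILMN_2596596, differed by 0.11 and 0.20, in the opposite direction.

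For Rgs1 the block narrowed the interval of the genotype difference without agLDL to -0.21 to 0.44, against -1.17 to 1.39 over the averaged values. For Egr2 the intervals were -0.18 to 0.55 and -0.86 to 1.23. Under the block 0 of the 15 probes were called in any labelled comparison, where it called 0.00978% of all probes for agLDL under the Ndst1-deficient label, 0.264% for genotype without agLDL, 0.00978% for genotype with agLDL and 0% in the other 2. At an unadjusted p under 0.05 the block passed Fos for agLDL under the wild-type label, where 3.05% of all probes passed, and Dusp2 and 1 Rgs1 probe for genotype without agLDL, where 14.3% passed. None of the 15 passed for agLDL under the Ndst1-deficient label, genotype with agLDL or the interaction, where 9.71%, 7.97% and 3.66% of all probes did. The blocked fit counts the arrays of a mouse separately, and a number stands for different animals under the 2 genotype labels. Its narrower intervals for genotype therefore do not measure the spread between animals. A p that misses the threshold does not show that levels were equal, and the intervals over the averaged values give the sizes left possible for genotype.

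**Figure D3:**
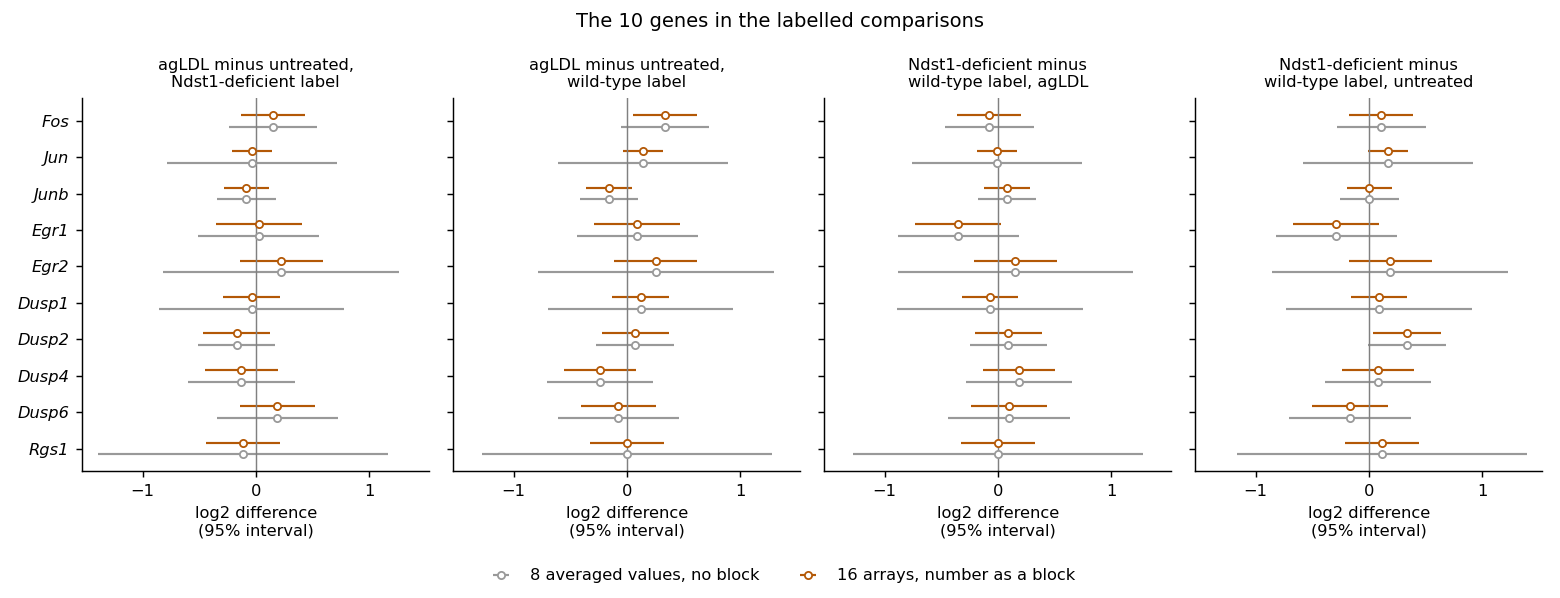
Log2 difference with its 95% interval (x axis) for 1 probe of each of the 10 genes (rows) in the 4 labelled comparisons (panels), over the averaged values (grey) and with mouse and duplicate number as a block on the 16 arrays (orange). The intervals of Rgs1, Egr2, Dusp1 and Jun narrow the most under the block, and no gene was called in either fit. The block counts the arrays of a mouse separately, so its intervals for genotype do not measure the spread between animals.

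The variance of each probe over the 16 arrays was split by its labels, as a description. For the 15 probes the median share that went with the 4 numbers was 93.3%, against a median of 49.7% over all probes that passed the filter. Duplicate number alone took a median of 80.9% (all probes 20.4%), mouse number 5.81% (10.2%), genotype label 0.438% (3.32%) and agLDL 0.333% (2.30%). These medians include both Dusp4 probes and the Dusp6 probes ILMN_2701321 and ILMN_1248537, which could pass the filter through duplicate 2 arrays. They also count several probes of Rgs1 and Dusp6, and nothing is read from their contrast with all probes. Rgs1 had 98.4% with the number and 0.0374% with the genotype label. Egr1 and Dusp2 had the lowest shares for the number of the 10 genes, with 20.8% and 33.3% for the number and 28.2% and 18.9% for the genotype label. Both were dim, with log2 means by number of 6.83 to 7.21 for Egr1 and 6.60 to 6.97 for Dusp2. The lowest detected log2 value of an array was 5.67 to 6.11, and the part of dimness in these shares was not tested. The share of agLDL was highest for Fos (8.004%) and Junb (6.08%).

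**Figure D4:**
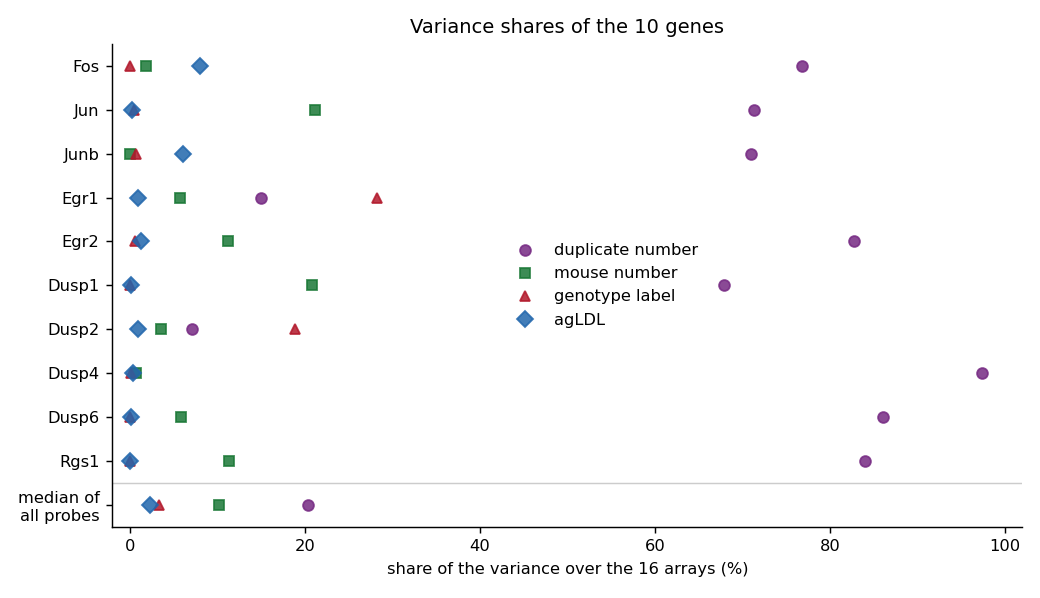
Share of the variance over the 16 arrays in percent (x axis) that goes with duplicate number, mouse number, genotype label and agLDL, for 1 probe of each of the 10 genes and, in the bottom row, as the median of all probes that passed the filter. Duplicate number takes between 67.9 and 97.4 percent for 8 genes and 14.99 and 7.16 percent for Egr1 and Dusp2. The highest share, that of Dusp4, rests on duplicate 1 arrays below detection.

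For each of the 10 genes the gene with the most similar pattern was taken as the highest Pearson correlation over the 16 arrays among 7072 other genes, as a description whose points share mice, slides and numbers. Dusp4 was nearest to Plpp3 (r = 0.988), Rgs1 to Gask1b (0.988), Jun to Nr1h3 (0.986) and Dusp6 to Rars (0.975). Egr2 was nearest to Rnf128 (0.974), Dusp1 to B3galt6 (0.970), Fos to Slc25a20 (0.945) and Junb to Gtpbp1 (0.940). Egr1 (Ctsh, 0.869) and Dusp2 (Unc119, 0.734) had the weakest nearest neighbours. None of the 10 was nearest to another of the 10.

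Other genes of the pathway did not share 1 direction. Of 24 other immediate early transcription factors, 23 had a probe and 11 were measured, and 3 were higher and 4 lower on duplicate 2 arrays, where 47.4% of all genes were called. Higher were Id2, a dominant-negative partner of helix-loop-helix factors, by 1.56 ± 0.11 (detected on 8 duplicate 2 and 4 duplicate 1 arrays), the stress-induced factor Atf3 by 0.71 ± 0.08, and the AP-1 subunit Jund by 0.21 ± 0.07 on the log2 scale. The difference was -1.22 ± 0.10 for Ier3, -1.005 ± 0.091 for Nfil3, -0.63 ± 0.07 for the zinc finger factor Klf2 and -0.30 ± 0.11 for the clock gene Per1, all lower. Fosb, Fosl1, Ier2, Nr4a1 and Btg2 were among 10 genes with a probe that no array detected. The median of the 11 was -0.07, against -0.02 over all genes.

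Of 28 other MAP kinase phosphatases and feedback regulators, 17 were measured, with 5 higher and 8 lower on duplicate 2 arrays, where 47.4% of all genes were called. The phosphatases Dusp8 (0.86 ± 0.08, detected on 8 duplicate 2 and 3 duplicate 1 arrays), Dusp3 (0.68 ± 0.10) and Dusp16 (0.48 ± 0.05) and the stress gene Gadd45b (0.34 ± 0.11) were higher. Lower were Socs3 and Cish, inhibitors of cytokine receptor signalling, which no duplicate 2 array detected. Socs3, detected on 5 duplicate 1 arrays, was at least 1.22-fold lower and Cish, detected on 6, at least 1.21-fold lower. Both passed the detection filter only through duplicate 1 arrays, so the filter fixed their direction. Dusp8 needed duplicate 2 arrays to pass. The counts of this list include these genes, and nothing is read from them. Rgs10, of the same family as Rgs1, differed by -0.73 ± 0.08 and the mRNA-destabilizing Zfp36l1 by -0.46 ± 0.05. None of the sprouty genes Spry1, Spry2 and Spry4, which are ERK feedback inhibitors, was detected on any array.

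Upstream of these genes, 9 of 25 listed members of the ERK cascade from the M-CSF receptor were measured, with 2 higher and 1 lower. Srf, the factor that binds the CArG box, was higher by 0.28 ± 0.07 and Rasa1 by 0.22 ± 0.09, and the kinase gene Araf differed by -0.49 ± 0.09. In the JNK and p38 cascade, 13 of 19 were measured, with 2 higher and 7 lower on duplicate 2 arrays, where 47.4% of all genes were called. Creb1 was higher by 0.34 ± 0.12 (detected on 8 duplicate 2 and 5 duplicate 1 arrays) and the kinase gene Map2k3 by 0.23 ± 0.06. Lower were the transcription factor gene Mef2c (-0.65 ± 0.07), the p38 gene Mapk14 (-0.55 ± 0.08), the JNK gene Mapk8 (-0.39 ± 0.12) and Map2k6 (-0.36 ± 0.08). By mouse number, where 31.8% of all genes were called, the counts of higher and lower genes were 3 and 3 among the transcription factors, 3 and 4 among the phosphatases and regulators, 1 and 1 in the ERK cascade, and 1 and 0 in the JNK and p38 cascade.

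**Figure D5:**
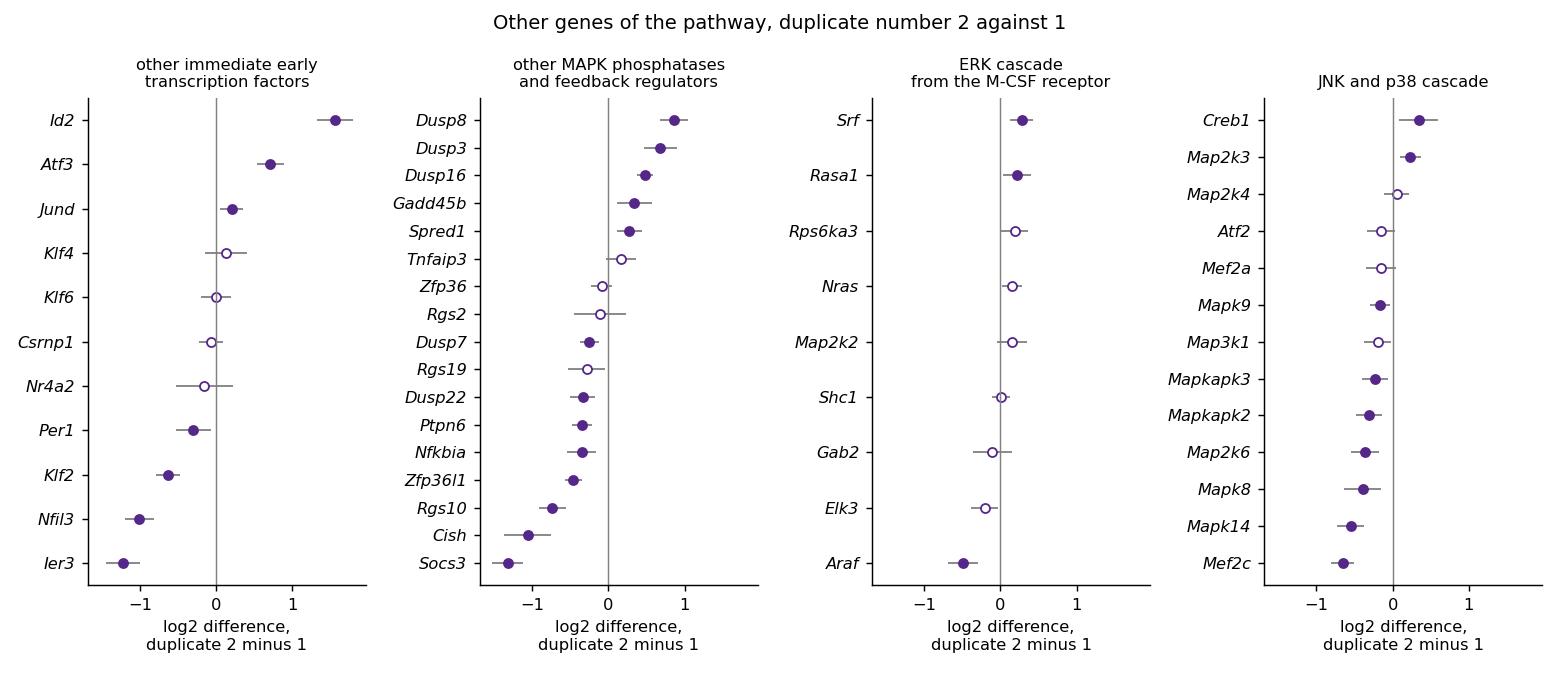
Log2 difference of duplicate number 2 minus 1 with its 95% interval (x axis) for the measured genes of 4 pathway lists (panels, genes as rows), with filled symbols for genes that passed the adjusted p of 0.05. Each panel holds genes on both sides of 0, from Id2 at 1.56 to Socs3 at -1.32, whose level and that of Cish on duplicate 2 arrays were below detection.

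Several other measures moved with the duplicate number, and their part in these results was not tested. Between duplicate numbers 47.4% of all genes were called. Of 8 measured heat shock genes, 4 were higher on duplicate 2 arrays and 0 lower, with Hspd1 at 0.85 ± 0.11 and Hsph1 at 0.62 ± 0.16. Over all probes that passed the filter, 22.4% were called higher and 23.7% lower. Of 7 reference genes, Gapdh was higher by 0.31 ± 0.05, Hprt differed by -0.17 ± 0.05 and 5 were not called. Of 6 macrophage markers, Adgre1 (-0.55 ± 0.06), Cd14 (-0.54 ± 0.07) and Itgam (-0.39 ± 0.11) were lower and none higher. The summed linear level of the 6 was 58292 to 62186 on duplicate 2 and 63745 to 71830 on duplicate 1 arrays. Of 7 neutrophil markers, the granule genes Mpo, Prtn3 and Elane were higher and Ltf lower, with sums of 13227 to 19927 on duplicate 2 and 13554 to 23849 on duplicate 1 arrays. The B cell gene Cd79b differed by -0.81 ± 0.08 (145 to 199 on duplicate 2 and 257 to 347 on duplicate 1 arrays), while Cd79a and Ms4a1 were not detected on any array. None of the 3 measured stromal markers was called between duplicate numbers.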

How the data were processed

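Biotin-labelled total RNA was read on single-colour Illumina arrays, per the labels' protocols. In the deposited table stood a mean bead intensity per probe and array, neither background-subtracted nor normalized, and a detection p-value, per the file headers. The submitters' processing notes name GenomeStudio. The authors' series-matrix values, deposited as background-subtracted intensities with an unstated normalization, were an alternative. The platform annotation gave 1 symbol to 23978 of 25697 probes, several to 0 and none to 1719.

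In limma 3.58.1 (R 4.3.3, statmod 1.5.0), neqc took the background from the detection p-values and quantile-normalized log2 values with an offset of 16. Probes with a detection p under 0.01 on at least 4 of 16 arrays were kept, which left 10224 probes and 7082 named genes. The probe detected on most arrays, then the brightest, stood for its gene. A fold against arrays that did not detect a probe is a lower bound: the detecting arrays' mean over the other arrays' mean, each of those set to its own signal or its array's lowest detected one, whichever is higher.

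Labelled comparisons were fitted on 8 values, the 2 arrays of each mouse and treatment averaged, with the group as the only term (4 residual degrees of freedom). That fit does not pair the treatments by mouse. Comparisons of mouse and duplicate number were fitted on 16 arrays with the group as a term (9 residual degrees of freedom). Calls were at a Benjamini-Hochberg adjusted p under 0.05 over all kept probes. Pairing by number was checked on deviations from the group means: 24 of 24 same-number pairs had r between 0.445 and 0.814, and 16 of 16 arrays correlated best with their own number. The numbers come from the labels, and the number was used as a block in a second fit. The fits were tested on simulated data. Sequences are from RefSeq (GRCm38.p6). Figures were drawn with matplotlib 3.10.9.

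The 10 genes, the gene lists and the tests were chosen with earlier results of these data known. Named were all probes of the 10 genes, the called genes of a list with the largest change (at most 4 per direction), and the nearest gene of each. Fosb, Fosl1, Ier2, Nr4a1, Btg2, the sprouty genes and genes outside the 4 pathway lists were named in addition. The probes of Ndst1 were not analysed here.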

Additional observations from a re-analysis of the deposited data

Results flagged for a closer look

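In 120 sets of 4 arrays, one set per tested probe and number or labelled group, 1 array stood apart from the other 3 by more than Dixon's 95% limit, and chance alone gives about 1 such set in 20. It was the untreated Ndst1-deficient array 2.2 for Rgs1 probe ILMN_2897891, which read 11.41, against 11.67 to 11.71 on the other arrays 2.2. The other Rgs1 probes on that array, ILMN_2625377 and ILMN_2596596, read 12.93 and 11.97, within or above their sets. The same array enters the blocked genotype difference of that probe without agLDL.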

How the results depend on the processing

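No called value of the 10 genes reversed under any alternative run: no normalization between arrays, cyclic loess, log2 raw signals, the authors' deposited values, no filter on dim probes, detection on at least 8 arrays, 1 probe per gene, the blocks, averages of each animal and each array left out. Of 3270 values, 253 uncalled ones changed sign. With the number as a replicate block, the count of called probes was 1 for agLDL under the Ndst1-deficient label, 27 for genotype without agLDL and 1 for genotype with agLDL, against 0 unblocked. The animal as a random block gave 1, 2 and 1. Leaving out 1 array in the blocked fit gave 0 to 4, 4 to 62 and 0 to 2, the 4 and 62 without Ndst1-deficient untreated arrays 1.2 and 2.1. The mouse number comparison called 2099 probes with the 4 arrays of each animal averaged, against 3158. The interaction of mouse and duplicate number called 32 probes and 1 of the 10 genes on log2 raw signals (Rgs1 at 0.87, limma adjusted p = 0.0449), 5 on the authors' values, and 0 to 29 leaving out 1 array, 29 without the wild-type agLDL array 1.1.

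Leaving out 1 array, 8 to 9 of the 10 genes were called between duplicate numbers and 4 to 6 between mouse numbers. With all arrays kept, 46.0% and 30.9% of all 10224 probes were called in these comparisons, in the same order. The count between duplicate numbers includes Dusp4, whose direction the detection filter fixed, so nothing is read from that count. Egr1 was called between duplicate numbers with mouse and treatment as 8 fixed pairs (limma adjusted p = 0.0486) and without the wild-type agLDL array 2.1 (0.0441). Dusp4 was called lower on mouse number 2 under cyclic loess, log2 raw signals, the random block and without any of 4 arrays (Ndst1-deficient untreated 2.1 and 1.2, wild-type agLDL 1.1, wild-type untreated 1.2) (limma adjusted p 0.0229 to 0.0496). Dusp2 was called higher on arrays 1.2 without normalization between arrays (limma adjusted p = 0.0202) and without the Ndst1-deficient agLDL array 2.1 or 1.2 or the wild-type untreated array 2.2 (0.0354 to 0.0429). The causes were not tested. Having 2 mice in a group limits precision, and dim probes such as Dusp4 on duplicate 1 arrays have only a bound.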
